A study of Mus musculus with 9 samples.

Results

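The genes described are *App*, which codes for the amyloid precursor protein, *Bace2*, and 7 more genes whose products resemble the precursor or cut it. They are *Aplp1*, *Aplp2*, *Bace1*, *Adam10*, *Psen2*, *Ncstn* and *Aph1a*. They were chosen by name, not by their values, though earlier results of these data were known. They make up 9 of the 43629 genes in the count table. *App* and *Bace2* lie in the segment of mouse chromosome 16 that is duplicated in Dp1Tyb mice, and the other 7 lie on other chromosomes. RNA was sequenced from mouse embryonic fibroblasts (MEFs), which are connective tissue cells grown from the bodies of embryos. Each culture came from 1 embryo at E14.5. The wild-type (WT) group holds 4 cultures, labelled Wild-type, and the Dp1Tyb group holds 5, labelled Dp(16Lipi-Zbtb21)1TybEmcf. Both groups share the strain label C57BL/6J.129P2, come from littermates that lost head and viscera before culture, and carry no transgene or treatment that the labels name. The Dp1Tyb cells carry 3 copies of the segment from *Lipi* to *Zbtb21* in place of 2, so that a level in proportion to copy number would be 1.5-fold that of WT, or 0.58 on the log2 scale. The question put to each gene was whether its RNA level differed between Dp1Tyb and WT cells, and by how much.

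The amyloid precursor is a membrane protein that many cell types make, and *Aplp1* and *Aplp2* code for its relatives. Alpha-secretases such as ADAM10 cut the precursor inside the amyloid-beta segment, whereas BACE1 cuts at the start of that segment and opens the way to amyloid-beta. BACE2, a relative of BACE1, cuts mainly inside the segment, and gamma-secretase, an enzyme of several subunits that include presenilin 2, nicastrin and APH1A, then cuts the membrane stub. In humans the precursor gene lies on the chromosome that is present in an extra copy in Down syndrome, and that copy is known for its link to early amyloid deposits.

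Sequencing depth was similar in the groups, with totals of 25571442 to 30009361 counts in WT and 24804539 to 26782380 counts in Dp1Tyb. Culture names in the labels begin with MEF1 for WT replicate 1 and Dp1Tyb replicate 1, called the first set here, and with MEF2 for the other 7, called the second set. All 9 fibroblast markers were detected, with summed levels of 30695 to 45754 CPM (counts scaled to a common library total) in WT and 22913 to 47513 CPM in Dp1Tyb cultures. Dp1Tyb replicate 2 had the lowest of these sums, to which the collagen genes of the list added the most counts. The lists for epithelium, endothelium, melanocytes and skeletal muscle stayed at or below 20.5 CPM in every culture, that for neurons lay between 23.9 and 43.4 CPM, and that for macrophages between 9.38 and 117 CPM. Of the 7 neuronal markers, *Rbfox3*, *Elavl3* and *Snap25* were at no more than 4 counts in any culture, whereas *Stmn2* had 94 to 848, *Map2* 169 to 1121, *Syt1* 7 to 59 and *Elavl4* 3 to 25 counts.

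All 9 genes passed the filter on low counts that left 14567 genes for the test. None of the 9 passed edgeR's quasi-likelihood test at a Benjamini-Hochberg adjusted p below 0.05 over all genes, where 24 of all genes tested did (0.165%). At an unadjusted p below 0.05 there was 1 of the 9, *App*, against 3.13% of all genes tested. *App* was also the single gene of the 9 whose normalised counts did not overlap between the genotypes, against 1.36% of all genes. DESeq2 called *App* and no other of the 9, with 0.418% of all genes called. Of the 68 genes that DESeq2 called, 39 lie in the duplicated segment, where *App* also lies. Each normalised count is a raw count scaled for sequencing depth with edgeR's TMM factors, so that levels can be compared between cultures.

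**Figure D1:**
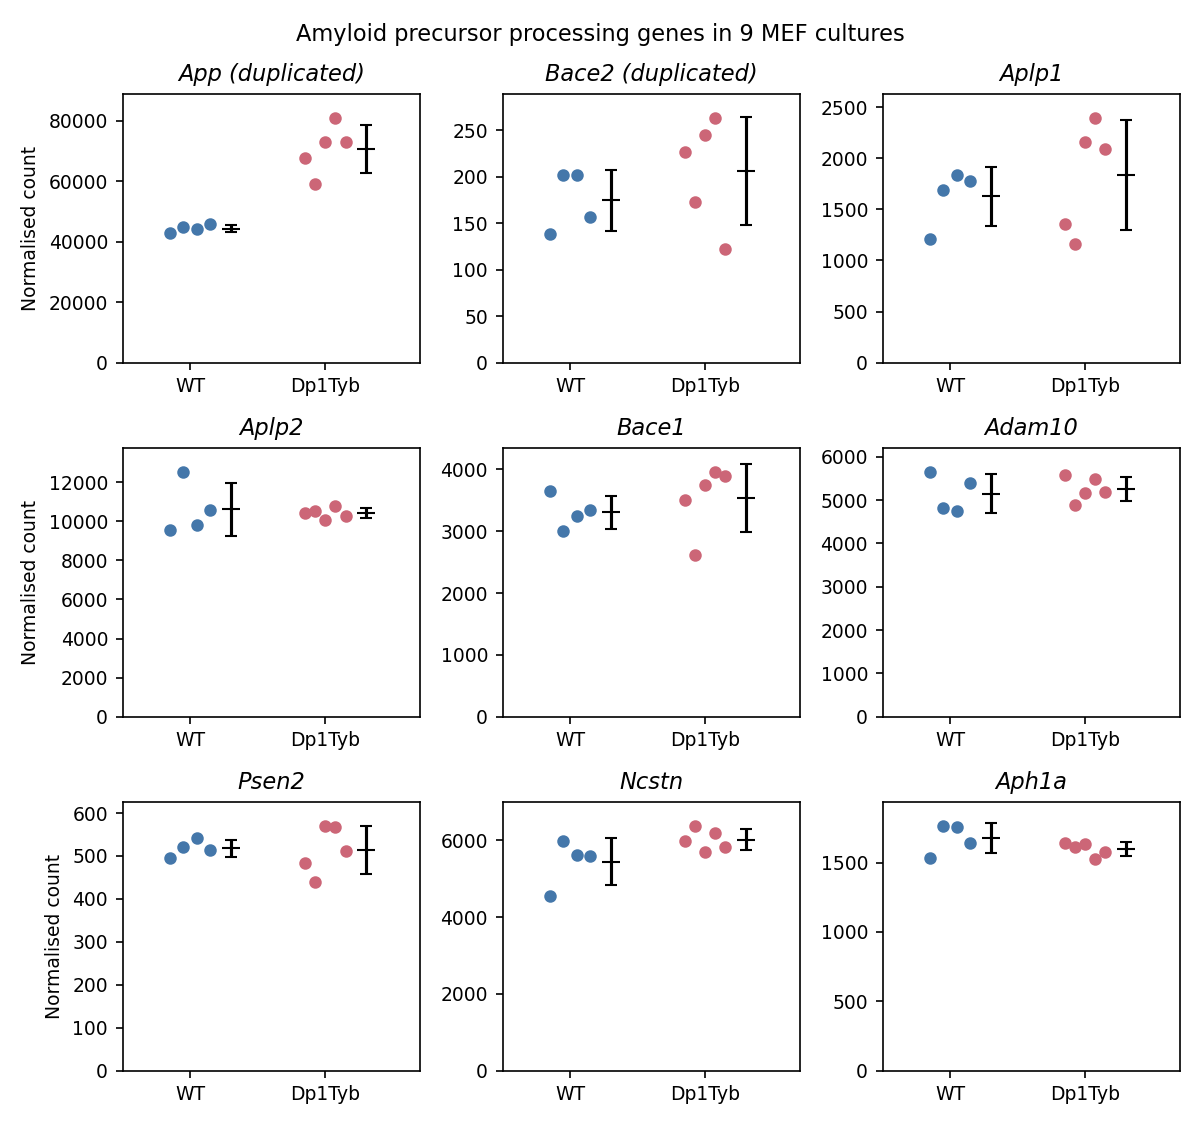
Normalised counts (vertical axes, from 0) of the 9 genes in each of 4 WT (blue) and 5 Dp1Tyb (red) MEF cultures, in the order of replicate numbers, with the mean ± SD in black. The 5 Dp1Tyb cultures lie between 59166 and 80938 for *App*, above the WT cultures, whose highest value is 45801, and the genotypes overlap in the other 8 genes.

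*App* (ENSMUSG00000022892) runs on the minus strand of chromosome 16 from 84949685 to 85173766 in GRCm38, and GENCODE M21 lists 11 transcripts for it. Its normalised counts in WT replicates 1 to 4 were 42739, 44755, 44107 and 45801. In Dp1Tyb replicates 1 to 5 they were 67745, 59166, 72970.1, 80938 and 72984. The lowest Dp1Tyb culture, replicate 2, was thus above the highest WT culture. The WT cultures lay close together, with a coefficient of variation of 2.89%, whereas the Dp1Tyb cultures spread over 11.3%. Counting error at these depths is 0.413%, so that nearly all of this spread lies between cultures. Each Dp1Tyb culture was between 1.33 and 1.83 times the WT mean. The fitted difference was 0.67 on the log2 scale (SE 0.11), or 1.60-fold with a 95% interval from 1.35 to 1.88, which holds 1.5-fold and not 1. The unadjusted p of edgeR's quasi-likelihood test was 0.000104 and the adjusted p 0.0584, just outside the threshold. DESeq2 gave 0.68 (SE 0.10) with an adjusted p of 9.64e-09. Without Dp1Tyb replicate 2, the culture with the lowest *App* level of its group and the lowest sum of fibroblast markers, edgeR gave 0.73 with an adjusted p of 0.0192 and called 0.179% of all genes tested. The other 8 leave-outs of 1 culture gave 0.62 to 0.70 with no call, while the part of fibroblast content in these levels was not tested.

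The difference in *App* was about the same in both sets of cultures. Within the second set it was 0.66 on the log2 scale of normalised counts plus 1, with an exact permutation p of 0.0286 (two-sided), the smallest that 35 relabelings of 3 WT and 4 Dp1Tyb cultures can give. In the first set, with 1 culture of each genotype and so no test, it was also 0.66. Over all 9 cultures the exact permutation p was 0.00794 (two-sided), the smallest that 126 relabelings can give.

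Among the duplicated genes, *App* was the one with the most RNA. It ranked first of the 89 tested genes of the segment both by count and by RPKM, the count scaled by exon length and by the total of its culture, and 301st of 14495 genes over the genome by RPKM. It took up 29.2% ± 0.77 (SD, n = 4) of the normalised counts of the segment in WT cells and 30.0% ± 1.82 (SD, n = 5) in Dp1Tyb cells, with overlapping ranges. Of all counts, *App* made up 0.170% ± 0.0023 in WT and 0.264% ± 0.030 in Dp1Tyb cells. The summed normalised counts of the segment without *App* were 1.53 times higher in Dp1Tyb than in WT. By fold change *App* was in 24th place of 89, and 44 of the 89 genes were above 1.5-fold, with a median log2 fold change of 0.58. As background to the missing call, 22 of the 89 were called by edgeR (24.7%), all higher in Dp1Tyb, and 46 did not overlap between the genotypes with Dp1Tyb higher (51.7%).

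**Figure D2:**
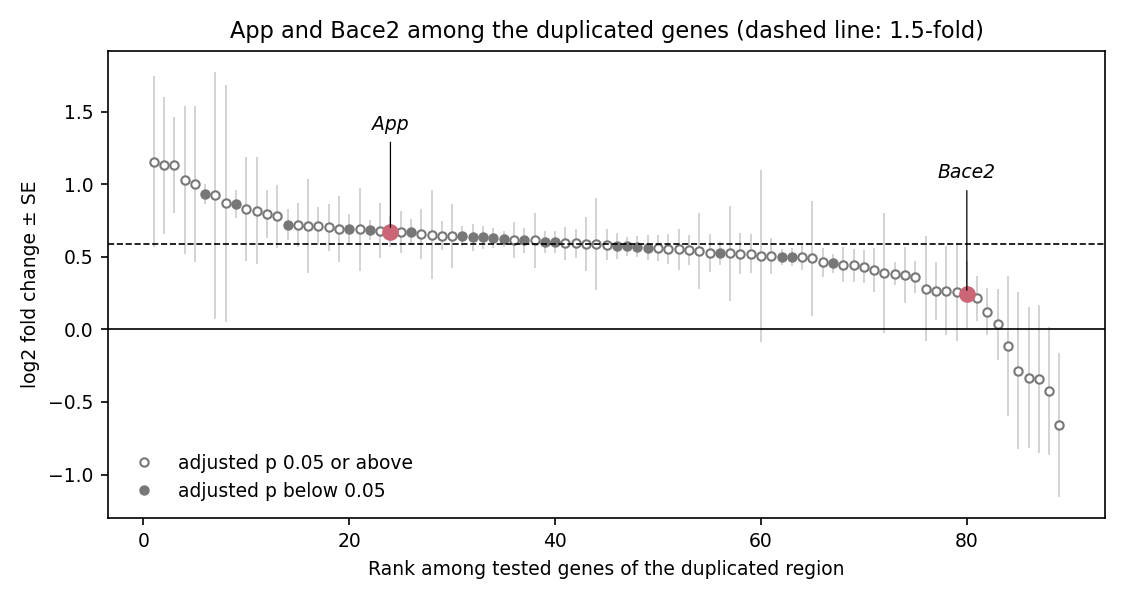
log2 fold change of Dp1Tyb vs WT (vertical axis, points with SE bars) of the 89 tested genes of the duplicated segment, in order of fold change (horizontal axis). *App* and *Bace2* are the larger red points, neither with an adjusted p below 0.05, and the dashed line marks 1.5-fold. *App* is in 24th place, just above the line, and *Bace2* in 80th place, near the lower end.

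Of the 3 nearest tested genes on each side of *App*, 6 in all, 2 were called and all 6 had fold changes above 1. Over the segment, 22 of the 89 tested genes were called (24.7%) and 83 had fold changes above 1. *Gabpa*, which codes for the DNA-binding subunit of the transcription factor GABP, lies 85.9 kb from the 3′ end of *App*. Its normalised counts were 1720 to 2067 in WT and 2790 to 2994 in Dp1Tyb cultures. Its log2 fold change was 0.64 (SE 0.07, edgeR adjusted p 0.0102). The call of *Gabpa* was lost without Dp1Tyb replicate 5 (adjusted p 0.0503), WT replicate 2 (0.0632) or WT replicate 3 (0.0678). *Atp5j*, for a subunit of the mitochondrial ATP synthase, had a log2 fold change of 0.56 (SE 0.08, edgeR adjusted p 0.0417), and its call held in 1 of 9 leave-outs of 1 culture, that of Dp1Tyb replicate 2. Within the second set the differences were 0.66 for *Gabpa* and 0.56 for *Atp5j*, each without overlap (exact permutation p = 0.0286, two-sided, the smallest possible there). *App* had a fold change of the same order as these called neighbours and a wider spread among Dp1Tyb cultures, 11.3% against 2.77% for *Gabpa* and 10.5% for *Atp5j*. Among WT cultures its spread was narrower than theirs, 2.89% against 8.68% for *Gabpa* and 4.69% for *Atp5j*. The part of these spreads in the calls was not tested. *Adamts1* and *Adamts5*, which code for extracellular proteases that cut proteoglycans, had log2 fold changes of 0.69 and 0.64 with overlapping genotypes and adjusted p of 0.9997. *Cyyr1* (0.51) and *Jam2*, a junctional adhesion molecule (0.39), had wide intervals that held both 1-fold and 1.5-fold. *Jam2* read 1213 in Dp1Tyb replicate 2 and 279 to 493 in the other Dp1Tyb cultures, and without that culture its log2 fold change was -0.14.

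*Bace2* (ENSMUSG00000040605), on the plus strand of chromosome 16 from 97356742 to 97442936, was present in the same 3 copies but at a far lower level. Its normalised counts in WT replicates 1 to 4 were 138, 202, 202 and 156, and in Dp1Tyb replicates 1 to 5 they were 227, 173, 245, 263 and 122. The genotypes overlapped, and Dp1Tyb replicate 5 was the lowest of all 9 cultures. The log2 fold change was 0.24 (SE 0.23), or 1.18-fold, with a 95% interval from 0.826 to 1.69 that holds both no change and 1.5-fold. Its edgeR p was 0.323 before and 0.9997 after adjustment. By fold change *Bace2* was in 80th place of the 89 genes of the segment, and by count in 65th place. Raw counts of 120 to 245 give a counting error of 7.25%, below the coefficients of variation of 18.6% in WT and 28.0% in Dp1Tyb cultures. The first set gave a difference of 0.71 and the second set 0.05 (exact permutation p = 0.857, two-sided). Without Dp1Tyb replicate 5 the log2 fold change was 0.38, and over the 9 leave-outs of 1 culture it was between 0.14 and 0.38 with no call. A difference between *App* and *Bace2* in fold change was not tested.

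None of the 6 tested genes nearest to *Bace2* was called, against 22 of the 89 of the segment (24.7%). The genotypes overlapped in all 6, whereas 46 of the 89 (51.7%) did not overlap, with Dp1Tyb higher. *Mx1* and *Mx2*, which code for antiviral GTPases that interferons induce, lie downstream of *Bace2*, and the nearer end of *Mx1* is 4.10 kb away. *Mx2* read 50.8 to 134 in WT and 27.1 to 348 in Dp1Tyb cultures, with the lowest value in replicate 2, with a log2 fold change of 1.15 (SE 0.59). *Mx1* had 0.87 (SE 0.82), and *Gm9242* 0.71 (SE 0.32). On the other side, at 1037 to 1164 kb, *Sh3bgr* had 1.00 (SE 0.54), *Lca5l* 0.54 (SE 0.26) and *B3galt5*, a galactosyltransferase, -0.43 (SE 0.44). Of the 6, *Mx2* was read at a level like that of *Bace2*, and the other 5 had mean normalised counts between 9.42 for *Gm9242* and 31.0 for *Lca5l* in WT cultures, well below *Bace2*.

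The relatives of the precursor lie outside the segment, and neither passed the test. *Aplp2* (ENSMUSG00000031996, chromosome 9 from 31149557 to 31211815), the relative most widely made outside the nervous system, read 9547, 12524, 9816 and 10571 in WT replicates 1 to 4 and 10438, 10506, 10075, 10789 and 10273 in Dp1Tyb replicates 1 to 5. The Dp1Tyb cultures all lay inside the WT range. For *Aplp2* the fit gave a log2 fold change of -0.03 (SE 0.09), with a 95% interval from 0.853-fold to 1.13-fold that leaves out 1.5-fold. *Aplp1* (ENSMUSG00000006651, chromosome 7 from 30434982 to 30445535), known mainly from neurons, read 1204, 1690.4, 1831 and 1775 in WT and 1356, 1164, 2154, 2393 and 2089 in Dp1Tyb replicates. The highest 3 cultures were Dp1Tyb, and so was the lowest. The fit for *Aplp1* gave 0.17 on the log2 scale (SE 0.22), with an interval from 0.797-fold to 1.59-fold that holds 1 and 1.5-fold alike. The lowest *Aplp1* levels were in the 2 cultures of the first set and in Dp1Tyb replicate 2.

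The make-up of the family's RNA differed between the genotypes. Levels per length were needed here, since the 3 genes differ in length, and RPKM over all exons of each gene was used. *App* made up 61.9%, 56.1%, 59.8% and 59.6% of the summed RPKM of the 3 genes in WT replicates 1 to 4. In Dp1Tyb replicates 1 to 5 the share was 70.1%, 67.7%, 69.8%, 70.3% and 69.7%. The shares did not overlap, with means of 59.4% ± 2.39 (SD, n = 4) and 69.5% ± 1.05 (SD, n = 5). *Aplp2* made up 31.3% ± 2.34 in WT and 22.8% ± 2.41 in Dp1Tyb cells, and *Aplp1* 9.32% ± 1.37 and 7.64% ± 1.61. *App* RNA was 1.91 ± 0.20 times that of *Aplp2* in WT and 3.07 ± 0.34 times in Dp1Tyb cells. With the length of the longest transcript in place of all exons, the shares of *App* were 60.4% and 70.5%. Since the shares follow from the *App* level itself, they are a description and were not tested.

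**Figure D3:**
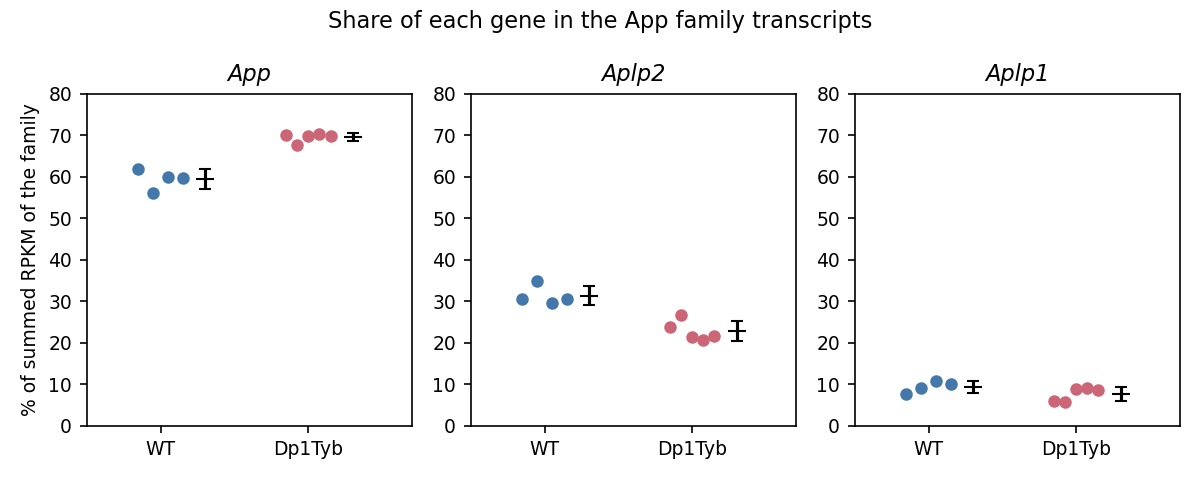
Share of *App*, *Aplp2* and *Aplp1* in the summed RPKM of the 3 genes (vertical axes, percent) in each WT (blue) and Dp1Tyb (red) culture, with the mean ± SD in black. The Dp1Tyb shares of *App*, 67.7% to 70.3%, lie above the WT shares, 56.1% to 61.9%, and those of *Aplp2* lie below.

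The sequences before the RefSeq starts of these 3 related genes are shown as a description. Among the cultures of a genotype, the levels of *App* and *Aplp1* varied together (Pearson's r = 0.89 over 9 cultures) more than those of *App* and *Aplp2* (r = 0.14), a difference that was not tested. *Psen2*, whose sequence is not shown, also had r = 0.89 with *App*. A relation of these sequences to the levels was not tested. Each is the stretch of 250 bases before the start in GRCm38.p6, on the minus strand, 5′ to 3′, and capitals mark matches to 4 short motifs on either strand. The motifs searched, on both strands, were GGGCGG for the box named after G and C, CCAAT for the box of the same name, TATAAA for the core promoter box near the start and CAGCTG for an E-box, which reads the same on both strands.
App, chr16:85173708-85173957: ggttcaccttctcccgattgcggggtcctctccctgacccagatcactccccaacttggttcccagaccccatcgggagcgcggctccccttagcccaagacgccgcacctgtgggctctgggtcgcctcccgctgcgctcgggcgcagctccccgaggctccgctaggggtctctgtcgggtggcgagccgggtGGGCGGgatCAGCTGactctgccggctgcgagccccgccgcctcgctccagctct
Aplp1, chr7:30445583-30445832: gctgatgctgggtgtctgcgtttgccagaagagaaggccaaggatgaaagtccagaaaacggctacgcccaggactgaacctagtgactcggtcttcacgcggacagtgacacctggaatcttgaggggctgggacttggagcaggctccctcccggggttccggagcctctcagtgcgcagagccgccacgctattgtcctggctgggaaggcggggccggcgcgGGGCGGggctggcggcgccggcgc
Aplp2, chr9:31211849-31212098: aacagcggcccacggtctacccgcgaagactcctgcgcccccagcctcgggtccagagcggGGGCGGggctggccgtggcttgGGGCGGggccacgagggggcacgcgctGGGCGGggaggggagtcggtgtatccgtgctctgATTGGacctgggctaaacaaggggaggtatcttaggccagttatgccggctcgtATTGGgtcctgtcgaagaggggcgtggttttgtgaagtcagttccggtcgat
*App* held 1 GGGCGG and 1 CAGCTG, *Aplp1* 1 GGGCGG, and *Aplp2* 3 GGGCGG and 2 CCAAT on the opposite strand, none of which overlap each other. None of the 3 held TATAAA. Over 32851 RefSeq promoters of the same length, GGGCGG was found in 32.7%, CCAAT in 33.8%, TATAAA in 12.4% and CAGCTG in 13.0%. The *App* stretch was 70.8% G and C, above 91.7% of these promoters, with 66.0% for *Aplp1* and 66.4% for *Aplp2* against a median of 52.4%. The GENCODE M21 start of *App*, at 85173766, lies inside its stretch, and its GGGCGG and CAGCTG both come after that start. RefSeq entries were matched for 7 of the 9 genes, without *Bace1* and *Bace2*.

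The protease that opens the way to amyloid-beta, *Bace1* (ENSMUSG00000032086, chromosome 9 from 45838580 to 45864399), read 3654, 3011, 3244 and 3336 in WT replicates 1 to 4. In Dp1Tyb replicates 1 to 5 it read 3505, 2610.1, 3746, 3959.8 and 3889. Of the Dp1Tyb cultures, 3 were above all WT cultures and replicate 2 was below them all. On the log2 scale *Bace1* differed by 0.10 (SE 0.12), with an interval from 0.885-fold to 1.29-fold. Per length, *Bace1* RNA was 24.5 ± 6.62 times that of *Bace2* in WT and 23.0 ± 9.23 times in Dp1Tyb cells. *App* RNA was 6.58 ± 0.64 times that of *Bace1* in WT and 9.84 ± 0.75 times in Dp1Tyb cells, with no overlap between cultures.

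The alpha-secretase gene *Adam10* (ENSMUSG00000054693, chromosome 9 from 70678997 to 70780229) read 5648, 4807, 4746 and 5392 in WT and 5588, 4884, 5155, 5482 and 5191 in Dp1Tyb replicates. All Dp1Tyb cultures were inside the WT range. On the log2 scale *Adam10* differed by 0.03 (SE 0.08), with an interval from 0.905-fold to 1.15-fold. *App* RNA per length was 3.28 ± 0.31 times that of *Adam10* in WT and 5.08 ± 0.47 times in Dp1Tyb cells.

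The 3 gamma-secretase genes differed little between the genotypes relative to the spread of the cultures. *Psen2* (ENSMUSG00000010609, chromosome 1 from 180227004 to 180263438), for a catalytic subunit, read 495, 521, 541 and 513 in WT and 484, 439, 569.9, 568 and 512 in Dp1Tyb replicates, with a log2 fold change of -0.01 (SE 0.09). *Ncstn* (ENSMUSG00000003458, chromosome 1 from 172066013 to 172082795), for the subunit nicastrin that binds substrates, read 4561, 5989, 5633 and 5598 in WT. In Dp1Tyb replicates it read 5985, 6377, 5704, 6191 and 5840.1, all above WT replicates 1, 3 and 4. For *Ncstn* the log2 fold change was 0.14 (SE 0.09). *Aph1a* (ENSMUSG00000015750, chromosome 3 from 95893969 to 95898288), for a scaffold subunit, read 1535, 1764, 1759.6 and 1645 in WT and 1642, 1613, 1634, 1523 and 1574 in Dp1Tyb replicates, with a log2 fold change of -0.07 (SE 0.06). Within the second set the *Aph1a* levels did not overlap, and the difference was -0.12 (exact permutation p = 0.0286, two-sided, the smallest that 35 relabelings can give), while in the first set it was 0.10. Another 4 genes for subunits of this enzyme had log2 fold changes between -0.13 and 0.16 with no call.

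Of the 7 genes outside the segment, 4 had fold changes above and 3 below 1, all 7 intervals held 1, and all 7 had an adjusted p of 0.9997. In 6 of the 7 the upper limit of the interval was below 1.5-fold, and *Aplp1* was the exception. Within the second set the 7 differences were between -0.12 for *Aph1a* and 0.13 for *Bace1*. The exact permutation p over all cultures was between 0.0714 for *Ncstn* and 0.881 for *Aplp2* (two-sided).

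**Figure D4:**
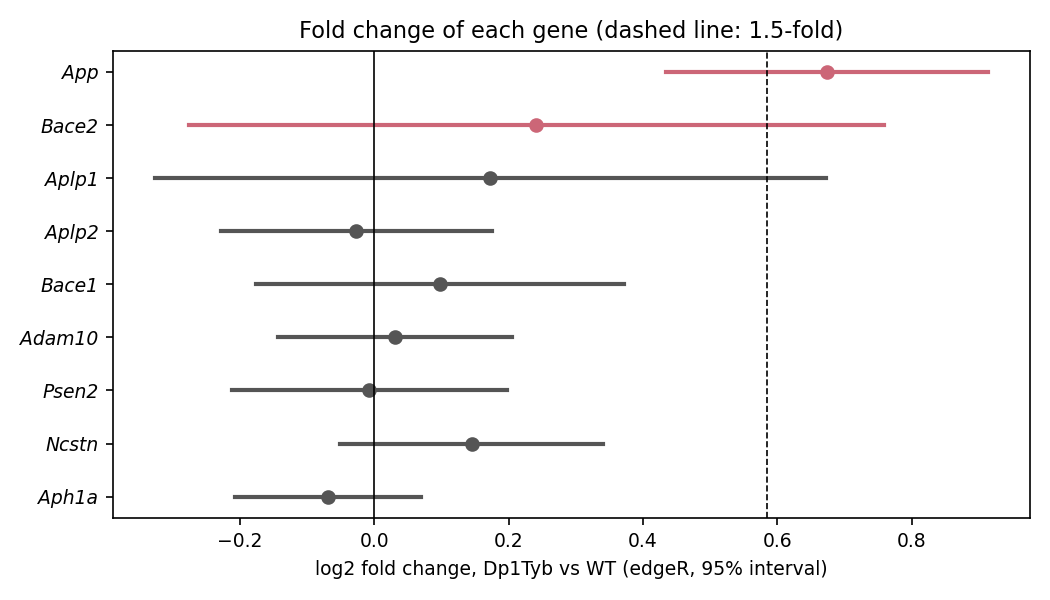
log2 fold change of Dp1Tyb vs WT (horizontal axis, points) with its 95% interval from edgeR (bars) for the 9 genes, duplicated genes in red and the others in grey. The dashed line marks 1.5-fold and the solid line no change. The interval of *App* alone leaves out 0, and those of *App*, *Bace2* and *Aplp1* hold 1.5-fold.

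On the scale of RPKM, the levels of the 9 genes in WT cells spanned from 131 ± 1.77 (SD, n = 4) for *App* to 0.848 ± 0.14 for *Bace2*. *App* was followed by *Aplp2* (69.3 ± 7.28), *Ncstn* (52.6 ± 4.56) and *Adam10* (40.4 ± 4.41). *Aplp1* (20.6 ± 3.23), *Bace1* (20.1 ± 2.20) and *Aph1a* (18.7 ± 0.86) came next, then *Psen2* (4.59 ± 0.14). Neighbours in this order did not overlap between WT cultures, except *Ncstn* with *Adam10*, *Aplp1* with *Bace1* and *Bace1* with *Aph1a*. The order was the same in Dp1Tyb cells, where *App* was at 203 ± 23.0 (SD, n = 5) and *Bace2* at 0.976 ± 0.28. With the length of the longest transcript, *App* was at 209 RPKM and *Psen2* at 9.85 in WT cells, and *Bace1* and *Aph1a* changed places.

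**Figure D5:**
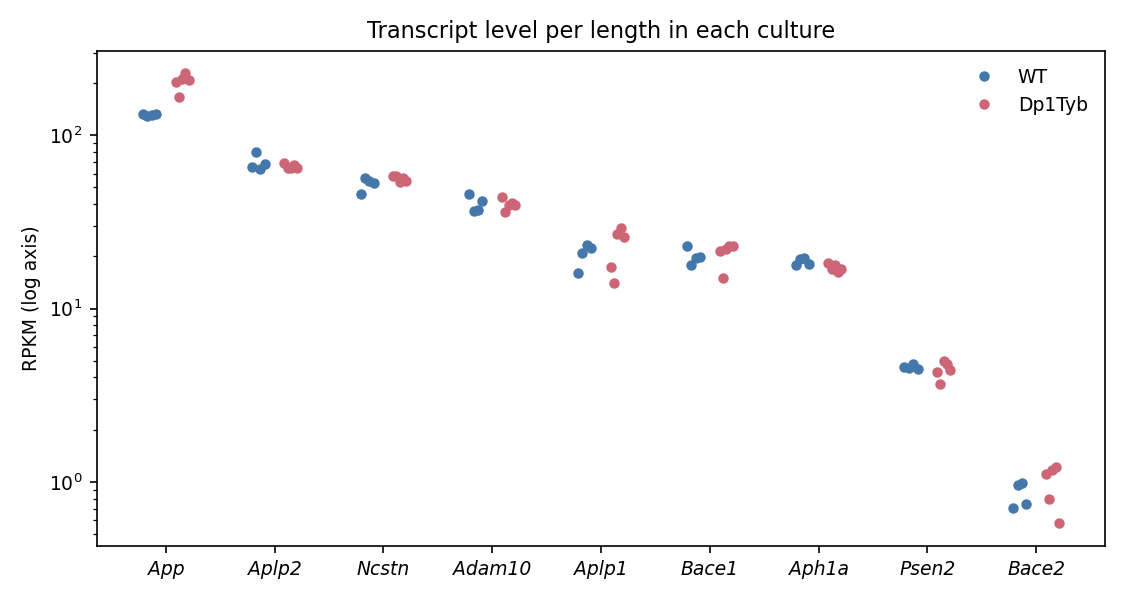
RPKM (vertical axis, logarithmic) of the 9 genes in order of their WT mean, with a point for each WT (blue) and Dp1Tyb (red) culture. The levels run from 129 to 228 for *App* down to 0.577 to 1.22 for *Bace2*, and *App* is the gene in which the genotypes separate.

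Reads of overlapping genes may enter some of these values, which was not tested, and the strand setting of the counting is not given in the sources used here. *Copa*, with 16588 to 21242 counts, overlaps *Ncstn* on the opposite strand, *Rnf214* (889 to 1300 counts) and *Gm16536* (106 to 205 counts) overlap *Bace1*, and the genes that overlap *Psen2* and *Aph1a* had at most 3 counts. Of the genes overlapping *App*, only the small nucleolar RNA gene *Gm27295* was listed, at 0 counts.

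Among the cultures of a genotype, some of the genes varied with *App*. Deviations of log2 CPM from the genotype mean were correlated over the 9 cultures, which share 2 sets, their depth scaling and their cell make-up, and the correlations are given as a description. With *App*, Pearson's r was 0.89 (Spearman's rho 0.92) for *Aplp1*, 0.89 (0.77) for *Psen2* and 0.80 (0.73) for *Bace1*. Leaving out Dp1Tyb replicates 2 and 4, the cultures with the most extreme *App* deviations, r over the other 7 was 0.92 for *Aplp1* and 0.63 for *Psen2*, and 0.01 for *Bace1*, whose relation rests on those cultures. Within the second set of 7 cultures r was 0.96, 0.88 and 0.94 for the same 3 genes. For the other 5 genes r with *App* over all 9 cultures was between -0.21 for *Aph1a* and 0.32 for *Bace2*, and within the second set between -0.52 for *Aph1a* and 0.70 for *Adam10*. Among the genes most like *App* over all genes tested were *Pofut1*, which codes for an enzyme that adds fucose to Notch receptors (r = 0.97), and *Pkd2*, a calcium-permeable channel (0.97). Neither passed the test between genotypes (log2 fold changes 0.04 and -0.04). Without Dp1Tyb replicates 2 and 4, r with *App* was 0.81 for *Pofut1* and 0.70 for *Pkd2*, and within the second set 0.99 for each. The genes most like *Bace2* were ENSMUSG00000093760 (r = 0.93), *Tmem116* (0.93) and *AF357399* (0.91). Each of these genes was picked for its high r among all genes tested, so that a high value is given by the choice. Among the 9 genes, *Bace2* had its highest r with *Psen2*, at 0.52. Dp1Tyb replicate 5 and WT replicate 1 had the most extreme *Bace2* deviations. Without them, r with *Bace2* over the other 7 was 0.83 for *Psen2*, 0.74 for *App*, 0.73 for *Aplp1* and 0.72 for *Bace1*. Over all 9, r was 0.32 for *App*, 0.30 for *Aplp1* and -0.01 for *Bace1*. For *Ncstn*, *Aph1a* and *Aplp2* r fell on this leave-out, from 0.38, 0.41 and 0.30 to -0.24, 0.12 and 0.13. Within the second set, r with *Bace2* was 0.58 for *Psen2*, 0.33 for *App*, 0.30 for *Aplp1* and 0.12 for *Bace1*.

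The wider pathway was read from 4 lists with 78 genes, of which 77 were in the table and 76 were tested. None was called by edgeR in either direction. An unadjusted p below 0.05 was found for 7 of the 76, against 456 of all 14567 genes tested (3.13%). Between the genotypes 5 of the 76 did not overlap, against 198 of the 14567 (1.36%). The lists were not tested as sets. The median log2 fold change of the 76 was 0.02, beside 0.003 over all genes tested, with 40 genes above and 36 below 0. In the list of other secretases and their partners, 8 of 16 were above 0 and 8 below. Of the adaptors and trafficking genes of the precursor 15 of 27 were above 0, of the genes for breakdown and clearance of amyloid-beta 8 of 18, and of the other substrates of gamma-secretase 9 of 15. The 2 genes with the lowest p in each list were, in that order, *Tspan15* and *Adam19*, *Snx17* and *Apbb2*, *Mmp9* and *Ece2*, and *Ngfr* and *Notch3*.

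*Tspan15*, for a tetraspanin that escorts ADAM10 to the cell surface, read 126, 97.4, 97.8 and 83.1 in WT and 46.3, 64.9, 81.0, 33.0 and 24.4 in Dp1Tyb replicates. The genotypes did not overlap, by a margin of 83.1 against 81.0. Its log2 fold change was -1.02 (SE 0.33, edgeR adjusted p = 0.9997). *Adam19*, a relative of *Adam10*, read 3857 to 5229 in WT and 4472 to 7246 in Dp1Tyb cultures, with 0.46 (SE 0.17, adjusted p = 0.9997).

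*Snx17*, for a sorting nexin that returns the precursor and related receptors from endosomes to the surface had the smallest SE of the 76 genes. It read 2201, 2404, 2385 and 2209 in WT and 1894, 1905, 2062, 1904 and 1949.8 in Dp1Tyb replicates, with every Dp1Tyb culture below every WT culture. The log2 fold change of *Snx17* was -0.24 (SE 0.06), or 0.845-fold, with an edgeR p of 0.00197 before and 0.477 after adjustment, and within the second set it was -0.25. *Apbb2*, for an adaptor that binds the tail of the precursor, read 1624 to 1869 in WT and 1899 to 2048 in Dp1Tyb cultures, without overlap, with a log2 fold change of 0.16 (SE 0.06, adjusted p = 0.9997).

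Among genes for breakdown and clearance, *Mmp9*, a secreted metalloprotease, read 54.8 to 274 in WT and 182 to 456 in Dp1Tyb cultures, with a log2 fold change of 1.12 (SE 0.45). *Ece2*, for an endothelin-converting enzyme, read 586 to 639 in WT and 484 to 582 in Dp1Tyb cultures, with -0.19 (SE 0.08). Both had an adjusted p of 0.9997, and the genotypes overlapped in *Mmp9* and not in *Ece2*. *Ece2* lies on chromosome 16, outside the duplicated segment.

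*Ngfr*, for the p75 neurotrophin receptor, a substrate of gamma-secretase, had the lowest p of the 76 genes. It read 1771, 1086, 1521 and 777 in WT and 529.8, 341, 689, 422 and 262 in Dp1Tyb replicates, without overlap. For *Ngfr* the log2 fold change was -1.52 (SE 0.31), or 0.348-fold, with an edgeR adjusted p of 0.231 and a DESeq2 adjusted p of 0.000500, the single DESeq2 call among the 76. Within the second set the difference was -1.44 (exact permutation p = 0.0571, two-sided). *Ngfr* is also a marker of neural crest and Schwann cells. The 7 other markers of these cells, summed, were at 32.5 to 63.7 CPM in WT and 10.7 to 33.1 CPM in Dp1Tyb cultures, none of the 7 was at the floor of 3 counts in all cultures, and 4 of the 6 tested had an unadjusted p below 0.05, with no edgeR call. *Sox10* and *Foxd3* had log2 fold changes of -1.71 and -1.79. The part of these cells in the *Ngfr* difference was not tested, and in bulk RNA fewer cells of a type and less RNA per cell cannot be told apart. *Notch3*, another substrate, read 1421 to 1778 in WT and 1167 to 2507 in Dp1Tyb cultures, with 0.32 (SE 0.20, adjusted p = 0.9997).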

How the data were processed

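RNA from 4 WT and 5 Dp1Tyb MEF cultures was sequenced by the authors as paired reads of 100 bases from TruSeq Stranded mRNA libraries. The authors trimmed adapters with Trim Galore, mapped reads to GRCm38 with TopHat2 2.0.12, kept reads with a single alignment and counted them with htseq-count. The deposited table holds these raw counts per Ensembl gene, which entered all tests. Not used were the authors' normalised counts and their DESeq2 1.6.3 table of mean, log2 fold change, its error, statistic and p-values.

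Cultures were grouped by genotype label. Of the 43629 listed genes, 42462 were matched to GENCODE M21 for symbols and positions. The genotypes were compared in R 4.3.3 by edgeR 4.0.16, using TMM factors, filterByExpr and the two-sided quasi-likelihood test without covariates, at a Benjamini-Hochberg adjusted p below 0.05 over all 14567 genes tested. SEs came from the F statistic and 95% intervals from the t distribution of the fit. Single values were compared by exact permutation over cultures, on log2 with a pseudocount of 1. RPKM used the summed exon length and total counts. Counts of 3 or fewer were taken as the floor. The counting errors given in percent cover counting alone, whereas the 95% intervals also hold the spread between cultures. Python 3.11.15 with numpy 2.4.6, scipy 1.17.1, pandas 2.3.3 and matplotlib 3.10.9 was used, and the scripts were tested on simulated data.

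The 9 genes and the gene lists were chosen with earlier results of these data known. Named beside them are the 2 genes of each list with the lowest p (none was called), the 3 nearest tested genes on each side of *App* and *Bace2* within the segment, and the 3 genes most like each, of which 1 is not reported here. *Nrdc* was matched as *Nrd1*, and *Apbb3* was not analysed here. *Jam2*, *Mx1* and the other neighbours come from that rule. *Zbtb21*, *Sox10*, *Foxd3*, the neuronal markers and the overlapping genes were named after their values were seen. Alternatives were DESeq2 1.42.0 with and without its beta prior, edgeR with size factors of DESeq2, TMM computed without genes of the segment, no filter, at least 10 counts in every culture, the set as a covariate, the second set alone, a replicate block, each culture left out in turn, and other lengths and scales for RPKM.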

Additional observations from a re-analysis of the deposited data

Results flagged for a closer look

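Of 58 groups of cultures checked, over 29 genes, 2 had a culture far from the others of its group by Dixon's criterion, where chance alone flags about 1 in 20. *Adam19* read 5229 in WT replicate 4 and 3857 to 4054 in the other 3 WT cultures. *Jam2* read 1213 in Dp1Tyb replicate 2 and 279 to 493 in the other 4 Dp1Tyb cultures. None of the 9 genes of the amyloid precursor and its processing had such a culture.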

How the results depend on the processing

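None of the 9 genes was called by edgeR, and 1, *App*, was called by DESeq2 with its defaults, by DESeq2 with its beta prior and by edgeR without Dp1Tyb replicate 2 (0 to 1 called over the leave-outs). Over 18 alternatives, of which 3 called it, the log2 fold change of *App* was between 0.61 and 0.73. It was 0.68 and 0.61 in the DESeq2 fits and 0.62 to 0.73 over the leave-outs, where edgeR's adjusted p was 0.0192 to 0.323. Over the 18, the adjusted p ran from 9.64e-09 with DESeq2's defaults to 0.385 with edgeR in the second set alone. *Bace2* had no call under any of the 18, with 0.14 to 0.38 over the leave-outs. Over all genes tested, 24 were called by edgeR, 68 by DESeq2 with its defaults, 67 with its beta prior, 1 in the second set alone and 2 to 26 over the leave-outs. Of the 76 pathway genes, 1 was called in each DESeq2 fit and 0 over the leave-outs. The causes of these differences were not tested.

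With the replicate number as a replicate block, 0 of all genes tested were called, and *App* had a log2 fold change of 0.65 with an adjusted p of 0.227. The labels do not say that a number marks a shared litter or day. Deviations of cultures with the same number correlated at 0.0315 to 0.741, above 0.1 in 3 of 4 pairs, with a mean of 0.352 against -0.090 for other pairs, and not every culture correlated best with its own number. The numbers were therefore not taken to pair the cultures, though these values leave a partial pairing possible.

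Signs turned only in genes whose values lay close to 0 or rested on 1 culture. Over the leave-outs, *Aplp2* ranged from -0.073 to 0.062 (turned without WT replicate 2), *Adam10* from -0.0060 to 0.081 (turned without WT replicates 2 and 3, at -0.00044 and -0.0060), *Psen2* from -0.047 to 0.044 (turned without Dp1Tyb replicates 1 and 2 and WT replicate 3) and *Jam2* from -0.14 to 0.56 (turned without Dp1Tyb replicate 2). *Psen2* also turned to 0.0011 with DESeq2's defaults, 0.00065 with its size factors in edgeR and 0.0010 with its beta prior. For *Bace2*, with 120 to 245 counts, the counting error of 7.25% lay below the variation between cultures of 18.6% in WT and 28.0% in Dp1Tyb.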
